A study of Mus musculus with 4 samples.

Results

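The large ribosomal subunit biogenesis factors are the nucleolar, nucleoplasmic and cytoplasmic proteins that assemble the 60S subunit and are not part of the finished ribosome. The 48 genes examined here were chosen by name for their role, with earlier results of these data known, and cover 60S assembly, the PeBoW complex, loading of the 5S RNP, the rixosome and export. All 48 were found among the 39179 genes in the count files, and all 48 were kept by the filter on low counts, which left 11483 genes for testing. The libraries came from B16F1, an established mouse melanoma cell line. In total, 2 libraries were made from parental B16F1 control cells, grown on rigid plastic, and 2 from tumor repopulating cells (TRCs), the cells recovered from spheroids that single B16F1 cells formed in soft 3D fibrin gels. Both groups share the cell line, and no added gene, deletion or drug is described for either. Only a minority of the seeded cells grow in such gels, so selection of a subpopulation and growth in soft 3D culture cannot be told apart in this design.

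Assembly of the 60S subunit begins in the nucleolus, where RNA polymerase I transcribes a precursor that contains the 28S and 5.8S ribosomal RNAs. Assembly factors fold and cut this precursor, load the ribosomal proteins and the separately made 5S RNA, and leave in a set order while the particle moves through the nucleoplasm to the cytoplasm. Much of the family is known as a growth-linked set of genes that MYC activates, and in tumor cells enlarged nucleoli are a classical sign of high ribosome production.

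The libraries held between 35948295 and 43511554 counts on genes, and the smallest count of any member in any library was 514. Alignments to more than a single place took 15.2% to 17.1% of the alignments in control cells and 18.3% to 25.2% in TRCs and were given to no gene. The melanocyte markers *Mlana*, *Pmel*, *Tyr*, *Tyrp1*, *Dct*, *Mitf* and *Sox10* were detected in every library, *Dct* was called higher in TRCs, and their summed level was 15712 to 18915 CPM in control cells and 23969 to 26669 CPM in TRCs. Of the leukocyte, endothelial and epithelial markers, none of 7, 5 and 5 genes passed the filter, their summed levels reached at most 0.855, 0.198 and 1.804 CPM, and *Ptprc*, *Cd3e*, *Cdh5*, *Kdr* and *Krt5* had 0 counts in all libraries. The fibroblast markers summed to 10.1 to 12.1 CPM in control cells and 3.22 to 5.68 CPM in TRCs, and *Col1a2* alone of them was called lower. Their part in the results was not tested. CPM here is counts per 1000000 counts on genes, scaled with TMM factors, the log2 fold change is TRCs against control cells, and a gene was called when the false discovery rate (FDR) of edgeR's exact test over all genes was under 0.05.

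Among the 48 factors, 35 (72.9%) were downregulated in TRCs and 0 were upregulated, where 7.05% of all genes tested were downregulated and 8.81% upregulated. No member was higher at an unadjusted p under 0.05, and edgeR's quasi-likelihood test and DESeq2 also called 0 members higher. The log2 fold change lay below 0 for 47 members, as it did for 49.7% of all genes, and its median was −0.87, against 0.0034 over all genes. For 13 members it was −1 or lower. Both TRC libraries lay below both control libraries for 44 members, a pattern found for 30.4% of all genes, and the reverse held for 1 member, *Gnl3l*, and 30.2% of all genes. The summed level of the family was 6644 and 8149 CPM in control replicates 1 and 3 and 3914 and 4434 CPM in TRC replicates 1 and 3. Every control library thus lay above every TRC library, and the mean in TRCs was 0.564 of that in control cells. In bulk RNA, fewer expressing cells and less RNA per cell cannot be told apart.

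**Figure D1:**
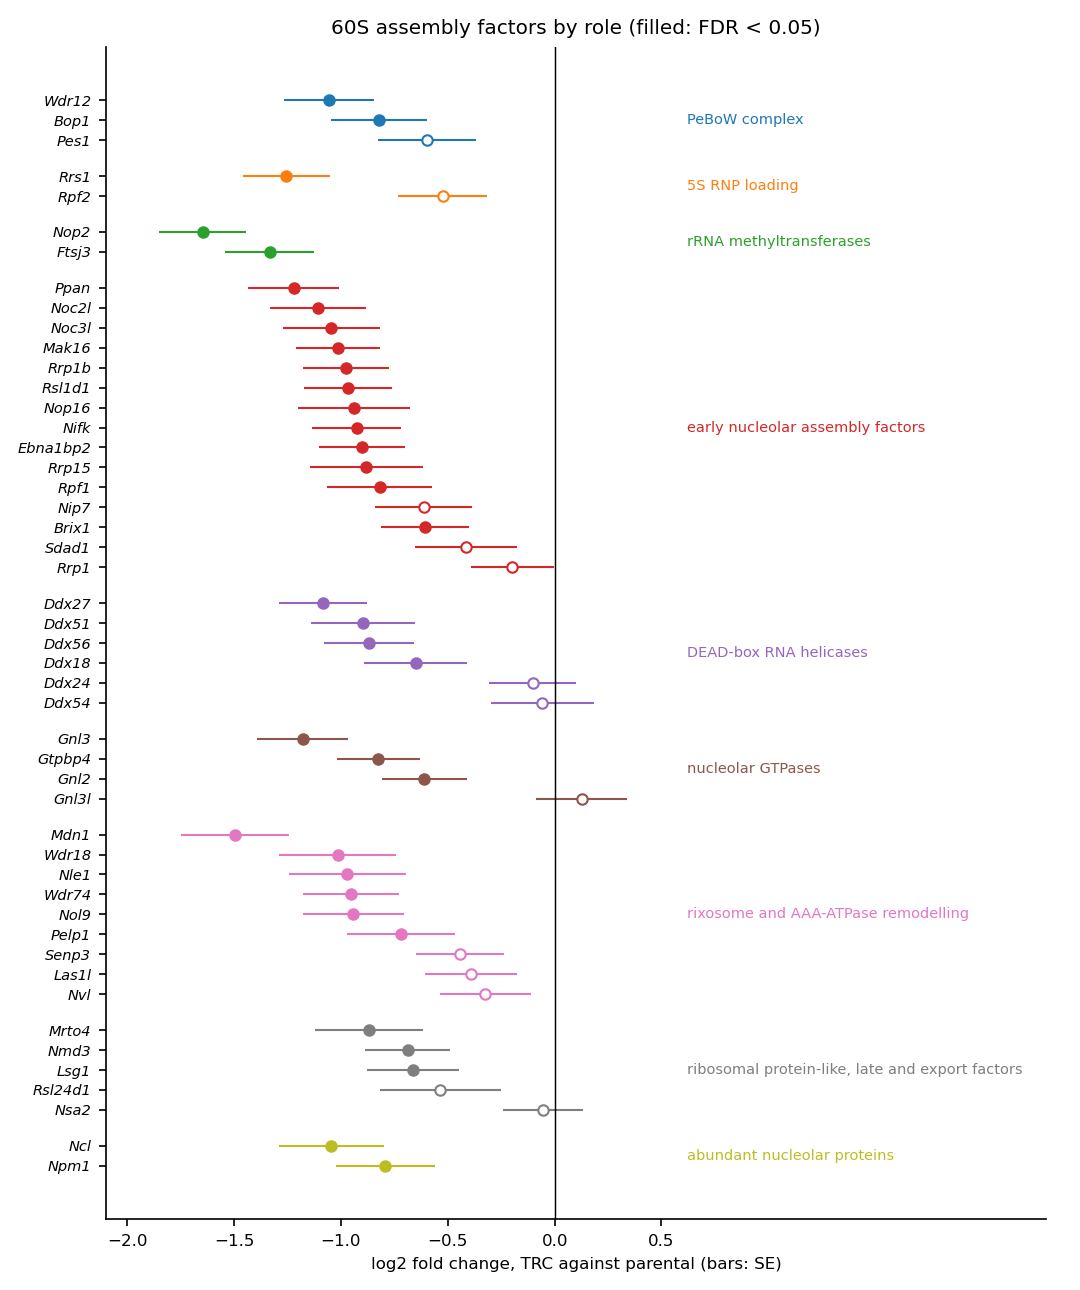
Log2 fold change of each of the 48 factors, TRCs against parental control cells, grouped by role along the vertical axis. Points are the fitted values, bars are standard errors, and filled points passed an FDR of 0.05 in edgeR's exact test. Of the points, 47 lie below 0, from *Nop2* at −1.65 to *Nsa2* at −0.056, and *Gnl3l* lies at 0.13.

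The quasi-likelihood test called 29 members lower (4.24% of all genes), the same test with a replicate block 25 (2.68%) and DESeq2 36 (8.24%). Of the members called by the exact test, the unblocked form did not call *Brix1*, *Rrp15*, *Ddx18*, *Gnl2*, *Pelp1* and *Npm1*. The blocked form did not call *Brix1*, *Rpf1*, *Rrp15*, *Ddx18*, *Ddx51*, *Gnl2*, *Pelp1*, *Nle1*, *Nmd3* and *Lsg1*. The number of calls also moved with the libraries used. Without control replicate 3, 18 members were called lower, without TRC replicate 1 it was 14, and without TRC replicate 3 it was 22, while without control replicate 1 it was 33. In those fits 3.16%, 2.34%, 2.36% and 7.44% of all genes were called lower, in the same order. The log2 fold change stayed below 0 for 45 members with any single library left out. In total, 12 members were called lower in all 13 alternative settings, namely *Nop2*, *Ftsj3*, *Mdn1*, *Rrs1*, *Ppan*, *Gnl3*, *Noc2l*, *Ddx27*, *Wdr12*, *Mak16*, *Rrp1b* and *Rsl1d1*. A lone library in a group is assumed to vary like the other group. The members were also higher in replicate 3 than in replicate 1 in 36 cases in control cells and 35 in TRCs, where 50.4% and 50.1% of all genes were, with median log2 differences of 0.19 and 0.11.

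**Figure D2:**
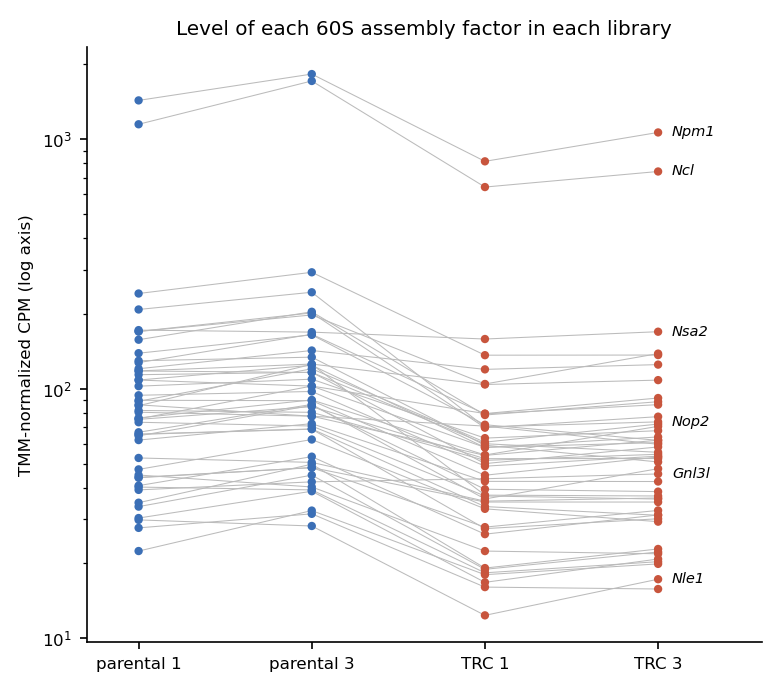
Level of each of the 48 factors in each of the 4 libraries, in TMM-normalized CPM on a log axis, with 1 line per gene. Control libraries are blue and TRC libraries red. On this scale, which is not per length, *Npm1* and *Ncl* lie highest, and the lines of *Nsa2* and *Gnl3l* stay nearly level from control cells to TRCs.

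The rRNA methyltransferases held the member with the largest decrease. *Nop2* (ENSMUSG00000038279, chromosome 6 from 125131909 to 125144753 on GRCm38), which methylates a cytosine of the 28S RNA, had 208 and 243 CPM in control replicates 1 and 3 and 70.3 and 73.7 CPM in TRC replicates 1 and 3. The groups were well apart, and the difference was 3.13-fold (log2 fold change −1.65, SE 0.20, FDR = 3.88e-10). *Ftsj3* (ENSMUSG00000020706, chromosome 11 from 106249142 to 106256079), the homolog of the yeast 2′-O-methyltransferase Spb1, had 169.7 and 201 CPM in control cells and 69.8 and 77.3 CPM in TRCs. It fell 2.52-fold (log2 fold change −1.33, SE 0.21, FDR = 8.73e-07), again without overlap. Both TRC libraries lay below both control libraries for 30.4% of all genes.

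The E-box CACGTG, the DNA motif bound by MYC with MAX, was looked for in RefSeq promoter windows of 300 bases, from 250 before the start site to 50 after it. The motif reads the same on both strands. A window was found for 41 of the 48 members, and 8 of the 41 (19.5%) held an E-box, against 12.3% of 8915 genes tested and 8.09% of 27025 genes with a window. The share was 27.8% in the small-subunit processome, 14.3% in other 60S factors and 14.7% in 60S ribosomal proteins. Among the members with an E-box, 5 were downregulated in TRCs (*Nop2*, *Mdn1*, *Nle1*, *Nmd3* and *Pelp1*) and 3 were not called (*Pes1*, *Rpf2* and *Sdad1*). Their median log2 fold change was −0.70, and that of the 33 members without an E-box was −0.90. The difference between these medians was not tested, and *Nop2* and *Mdn1*, the members with the lowest log2 fold changes, both hold an E-box. A match is a description of the sequence and no evidence of binding. The bases upstream of the start site are shown for the 3 members whose E-box lies upstream of every annotated start, and for *Ncl*, an abundant member that fell without an E-box in its window. Capitals mark the E-box, and each sequence runs 5′ to 3′ on the strand of the gene. The sequences are from RefSeq on GRCm38, at chr6:125131633-125131882 on the plus strand for *Nop2*, chr3:69721805-69721984 on the plus strand for *Nmd3*, chr11:70410032-70410281 on the minus strand for *Pelp1* and chr1:86359456-86359705 on the minus strand for *Ncl*.
Nop2: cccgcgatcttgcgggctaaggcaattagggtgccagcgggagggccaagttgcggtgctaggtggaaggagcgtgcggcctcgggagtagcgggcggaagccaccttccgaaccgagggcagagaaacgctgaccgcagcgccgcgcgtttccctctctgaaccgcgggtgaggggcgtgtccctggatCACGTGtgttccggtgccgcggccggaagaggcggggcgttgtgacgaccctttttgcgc
Nmd3: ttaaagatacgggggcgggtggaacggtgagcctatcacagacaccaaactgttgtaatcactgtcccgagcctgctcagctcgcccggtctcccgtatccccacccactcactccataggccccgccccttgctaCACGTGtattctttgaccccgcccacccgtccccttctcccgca
Pelp1: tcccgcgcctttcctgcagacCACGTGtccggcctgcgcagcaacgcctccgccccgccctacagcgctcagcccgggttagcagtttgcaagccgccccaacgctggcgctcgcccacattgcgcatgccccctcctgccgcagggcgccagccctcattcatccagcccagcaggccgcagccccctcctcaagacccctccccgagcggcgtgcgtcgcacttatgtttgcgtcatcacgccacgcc
Ncl: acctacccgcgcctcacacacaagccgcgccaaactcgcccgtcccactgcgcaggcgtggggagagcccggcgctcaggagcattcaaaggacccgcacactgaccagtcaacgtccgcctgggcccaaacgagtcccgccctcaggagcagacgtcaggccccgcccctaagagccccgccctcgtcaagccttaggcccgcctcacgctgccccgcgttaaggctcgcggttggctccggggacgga
The E-box of *Nop2* begins 60 bases before the start site, that of *Nmd3* 44 bases before the end of its sequence and that of *Pelp1* 229 bases before the start site. The list of the MYC network, which holds *Myc* and related genes beside its partners, had 10 of 13 genes tested. By the exact test 0 were downregulated, with 2 lower at an unadjusted p under 0.05. The quasi-likelihood test and DESeq2 also called 0 lower, although the fit without control replicate 1 did call a lower gene. The 2 upregulated genes were the MAX-binding repressors *Mxd4* and *Mxi1*, whose log2 fold changes were 1.83 (FDR = 7.49e-12) and 1.83 (FDR = 6.81e-10). *Myc* had 78.9 and 87.0 CPM in control cells and 73.7 and 46.7 CPM in TRCs, a difference that was not called (FDR = 0.227).

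The PeBoW complex, made of PES1, BOP1 and WDR12, is needed to process the spacer between the 5.8S and 28S RNAs. Of its genes, *Wdr12* and *Bop1* were downregulated and *Pes1* did not pass the test. *Wdr12* (ENSMUSG00000026019, chromosome 1 from 60069785 to 60098645) had 65.8 and 69.0 CPM in control cells and 33.7 and 31.1 CPM in TRCs (log2 fold change −1.06, SE 0.21, FDR = 0.00013). *Bop1* (ENSMUSG00000022557, chromosome 15 from 76452989 to 76477277) had 127 and 165 CPM in control cells and 79.3 and 86.4 CPM in TRCs (log2 fold change −0.82, SE 0.22, FDR = 0.00671). *Pes1* (ENSMUSG00000020430, chromosome 11 from 3963975 to 3980004) had 169.5 and 198 CPM in control cells and 104 and 138 CPM in TRCs (log2 fold change −0.60, SE 0.23, FDR = 0.0749). All 3 genes lay lower in both TRC libraries than in both control libraries, as did 30.4% of all genes. Per kilobase of transcript, the level of *Pes1* was 2.52 and 2.80 times that of *Wdr12* in control cells and 3.03 and 4.35 times in TRCs, so the order of the levels was the same in every library. The call of *Bop1* was lost without control replicate 3, TRC replicate 1 or TRC replicate 3, with log2 fold changes of −0.62, −0.77 and −0.89.

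RRS1 and RPF2 bring the 5S RNP, the 5S RNA bound to RPL5 and RPL11, into the young 60S particle. *Rrs1* (ENSMUSG00000061024, chromosome 1 from 9545408 to 9547455) had 129 and 134 CPM in control cells and 59.4 and 50.9 CPM in TRCs, a 2.39-fold decrease (log2 fold change −1.25, SE 0.20, FDR = 2.06e-06). Its partner *Rpf2* (ENSMUSG00000038510, chromosome 10 from 40223246 to 40247036) had 52.8 and 50.7 CPM in control cells and 35.5 and 36.5 CPM in TRCs. The groups did not overlap, as for 30.4% of all genes in this direction, but the difference was not called (log2 fold change −0.52, SE 0.21, FDR = 0.105). On the per-kilobase scale, the level of *Rrs1* was 1.55 and 1.67 times that of *Rpf2* in control cells and 1.06 and 0.882 times in TRCs. Thus the ratio of these partners was lower in both TRC libraries, and the difference between the ratios was not tested. The ribosomal protein genes of the 5S RNP were not called. *Rpl5* had 653 and 663 CPM in control cells and 649.7 and 882 CPM in TRCs (FDR = 0.603), and *Rpl11* had 450.3 and 547 CPM against 471 and 594 CPM (FDR = 0.847), both with overlapping groups.

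The group of early nucleolar factors mostly holds proteins that bind the precursor while it is still being folded. It also holds *Nip7* and *Sdad1*, which are linked below to later steps. Of its 15 genes 12 were downregulated, against 7.05% of all genes. All 15 lay lower in both TRC libraries than in both control libraries, a pattern found for 30.4% of all genes. *Ppan*, a member of the Brix-domain family, had the lowest FDR of the group, with 65.6 and 68.9 CPM in control cells and 27.5 and 30.1 CPM in TRCs (log2 fold change −1.22, SE 0.21, FDR = 5.66e-06). Its exons hold 2 annotated small RNAs on the same strand that overlap over 165 bases. *Rsl1d1*, a factor with an L1-like domain and the highest CPM of the group, had 241 and 293 CPM in control cells and 136 and 136 CPM in TRCs (log2 fold change −0.97, SE 0.20, FDR = 0.000721). The other downregulated members were *Noc2l*, *Noc3l*, *Mak16*, *Rrp1b*, *Nop16*, *Nifk*, *Ebna1bp2*, *Rrp15*, *Rpf1* and *Brix1*, with log2 fold changes from −1.11 for *Noc2l* to −0.61 for *Brix1*. Of these, NIFK binds the proliferation marker Ki-67, and NOC2L and NOC3L act on successive precursors. *Brix1* had an FDR of 0.0397 and lost its call in 7 of the 13 alternatives, which include each fit without control replicate 3, TRC replicate 1 or TRC replicate 3, with log2 fold changes of −0.52, −0.62 and −0.62. *Rpf1* and *Rrp15* lost their calls in the same 3 fits (−0.61, −0.92 and −0.74 for *Rpf1*, −0.69, −0.75 and −1.05 for *Rrp15*), and *Nop16* without control replicate 3 (−0.71). Without TRC replicate 1, *Nop16* (−0.84), *Ebna1bp2* (−0.85), *Nifk* (−0.87) and *Noc3l* (−0.99) were not called either. The exons of *Mak16* overlap *Tti2* on the other strand over 882 bases, and those of *Noc2l* overlap *Samd11* over 598 bases, so their reads may not be told apart from those of these neighbours.

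In this group of early factors, 3 were not called. *Nip7*, which acts in late processing of the precursor, had 44.2 and 48.3 CPM in control cells and 27.9 and 32.5 CPM in TRCs (log2 fold change −0.61, SE 0.23, FDR = 0.0652), and DESeq2 called it lower (adjusted p = 0.0423). *Sdad1*, the homolog of the yeast export-linked factor Sda1, had 76.4 and 90.2 CPM against 54.3 and 70.7 CPM (log2 fold change −0.41, SE 0.24, FDR = 0.24). *Rrp1* had 118 and 126 CPM against 104 and 108 CPM (log2 fold change −0.20, SE 0.19, FDR = 0.611), with a 95% interval from −0.57 to 0.18.

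*Rrp1* and *Rrp1b* are related genes, of which the latter was called. *Rrp1b* had 73.4 and 70.9 CPM in control cells and 37.2 and 36.1 CPM in TRCs (log2 fold change −0.98, SE 0.20, FDR = 0.000326). Per kilobase of transcript, the level of *Rrp1b* was 0.253 and 0.230 of that of *Rrp1* in control cells and 0.146 and 0.136 in TRCs. Likewise, the nucleolar GTPases *Gnl3*, also known as nucleostemin, and *Gnl3l* are related genes. *Gnl3* had 139 and 164 CPM in control cells and 71.8 and 62.1 CPM in TRCs (log2 fold change −1.18, SE 0.21, FDR = 1.9e-05). *Gnl3l* had 39.3 and 42.4 CPM in control cells and 43.6 and 45.6 CPM in TRCs (log2 fold change 0.13, SE 0.21, FDR = 0.777), with a 95% interval from −0.29 to 0.55. It was the only member with a higher mean in TRCs. Per kilobase of transcript, *Gnl3* stood at 8.82 and 9.70 times the level of *Gnl3l* in control cells and at 4.11 and 3.41 times in TRCs. In both pairs the ratio was lower in both TRC libraries than in both control libraries, and these differences were not tested. The exons of *Gnl3* hold 3 small RNA genes on the same strand, which overlap over 235 bases.

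**Figure D3:**
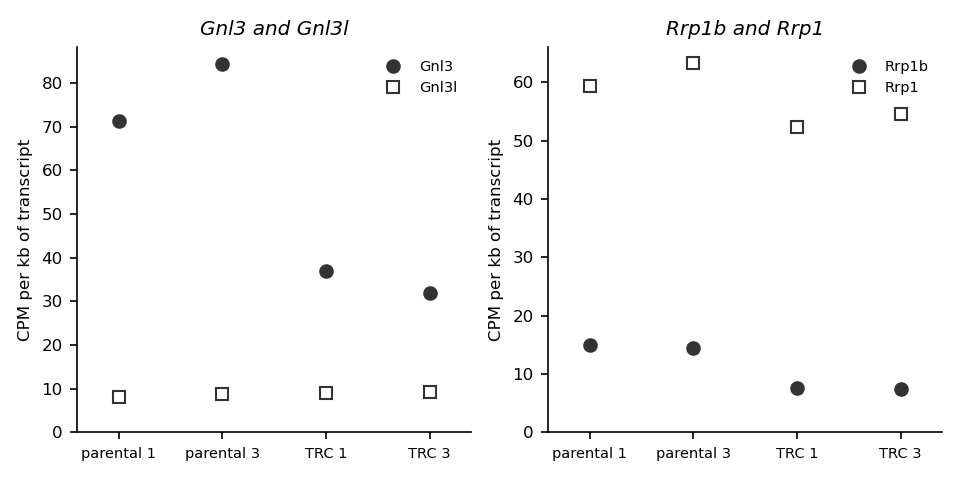
Level of *Gnl3* and *Gnl3l* and of *Rrp1b* and *Rrp1* in each of the 4 libraries, in CPM per kilobase of transcript, with 1 point per library. *Gnl3* drops from 71.3 and 84.4 to 36.9 and 31.9 while *Gnl3l* stays between 8.09 and 9.37, and *Rrp1b* drops from 15.1 and 14.5 to 7.63 and 7.42 beside *Rrp1* at 52.4 to 63.3.

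The other nucleolar GTPases were both downregulated. *Gtpbp4* (log2 fold change −0.82, FDR = 0.00307), the homolog of yeast Nog1, has 7 annotated pseudogenes, and reads shared with them were given to no gene. Its call was lost without TRC replicate 1 or 3, with log2 fold changes of −0.81 and −0.86. *Gnl2* (log2 fold change −0.61, FDR = 0.0367), which acts as the particle leaves the nucleolus, lost its call when any single library was left out, with log2 fold changes from −0.66 to −0.59.

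DEAD-box helicases unwind RNA helices during assembly, and 4 of 6 were downregulated, against 7.05% of all genes. *Ddx27*, the homolog of yeast Drs1, had the lowest FDR, with 114 and 116 CPM in control cells and 50.1 and 58.5 CPM in TRCs (log2 fold change −1.08, SE 0.21, FDR = 6.73e-05). *Ddx51*, *Ddx56* and *Ddx18* had log2 fold changes of −0.90, −0.87 and −0.65. The helicases *Ddx24* and *Ddx54* were not called. *Ddx24*, which has the highest CPM of the helicases, had 120.2 and 142 CPM in control cells and 119.6 and 125 CPM in TRCs (log2 fold change −0.10, SE 0.20, FDR = 0.821). *Ddx54* had 75.8 and 102 CPM in control cells and 79.5 and 91.8 CPM in TRCs (log2 fold change −0.057, SE 0.24, FDR = 0.91). Their groups overlapped, and the 95% intervals were −0.50 to 0.30 and −0.53 to 0.41. The call of *Ddx18*, at an FDR of 0.0463, was lost in 8 of the 13 alternatives, with log2 fold changes of −0.42 without control replicate 3, −0.55 without TRC replicate 1 and −0.78 without TRC replicate 3. In the same fits *Ddx51* was not called either (−0.80, −0.92 and −0.89), nor was *Ddx56* without TRC replicate 1 (−0.77).

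The rixosome and the AAA-ATPases remove early factors and trim the spacer in the nucleoplasm. Of these genes 6 of 9 were downregulated, against 7.05% of all genes. *Mdn1*, the giant ATPase that pulls factors off the particle, had 85.5 and 125 CPM in control cells and 37.5 and 37.2 CPM in TRCs. The control libraries differed from each other, yet both lay above both TRC libraries, as for 30.4% of all genes. The decrease was 2.82-fold (SE 0.25 on the log2 scale, FDR = 1.96e-07). *Nle1*, a substrate of MDN1, had a log2 fold change of −0.97. *Wdr74*, the partner of the ATPase NVL, had a log2 fold change of −0.95 (FDR = 0.00225). *Nvl* itself had 86.2 and 77.6 CPM in control cells and 70.8 and 59.9 CPM in TRCs and was not called (log2 fold change −0.33, SE 0.21, FDR = 0.353). Here the ATPase and its partner were not called alike, and the difference between them was not tested. *Nle1* was not called without control replicate 1 (−0.93), control replicate 3 (−1.01) or TRC replicate 1 (−0.77), nor was *Wdr74* without TRC replicate 3 (−0.94).

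Within the rixosome, *Nol9*, *Pelp1* and *Wdr18* were downregulated, and *Las1l* and *Senp3* were not called. LAS1L cuts the spacer and NOL9 phosphorylates the cut end. *Nol9* had 64.8 and 85.8 CPM in control cells and 39.6 and 38.7 CPM in TRCs (log2 fold change −0.94, SE 0.24, FDR = 0.0014), while *Las1l* had 44.0 and 48.3 CPM against 35.2 and 35.2 CPM (log2 fold change −0.39, SE 0.22, FDR = 0.267). The SUMO protease gene *Senp3* had 80.5 and 77.6 CPM against 54.1 and 62.2 CPM (log2 fold change −0.44, SE 0.21, FDR = 0.167). No gene of the rixosome overlapped between the groups, so the members that were not called were also lower in both TRC libraries. That pattern held for 30.4% of all genes. *Nol9* lost its call without control replicate 3 or TRC replicate 3, with log2 fold changes of −0.73 and −0.93, *Pelp1* without control replicate 3, TRC replicate 1 or TRC replicate 3, with −0.51, −0.61 and −0.86, and *Wdr18* without control replicate 3 or TRC replicate 1, with −0.74 and −0.91.

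Of the ribosomal protein-like, late and export factors, 3 of 5 were downregulated, against 7.05% of all genes. *Mrto4*, which holds the place of the stalk protein P0, had 66.9 and 86.5 CPM in control cells and 36.2 and 47.8 CPM in TRCs (log2 fold change −0.87, SE 0.25, FDR = 0.00584). The export adaptor gene *Nmd3* had 102 and 109 CPM against 63.4 and 67.9 CPM (log2 fold change −0.69, SE 0.20, FDR = 0.0173). *Lsg1*, the cytoplasmic GTPase that releases NMD3, had 62.3 and 72.5 CPM against 42.6 and 42.5 CPM (log2 fold change −0.66, SE 0.21, FDR = 0.0256). The export adaptor and its release factor were both called lower, with no overlap between the groups. Both TRC libraries lay below both control libraries for 30.4% of all genes. Without control replicate 3 or TRC replicate 1 all 3 calls were lost, with log2 fold changes of −0.67 and −0.70 for *Mrto4*, −0.64 and −0.65 for *Nmd3* and −0.55 and −0.68 for *Lsg1*, and without TRC replicate 3 those of *Nmd3* (−0.75) and *Lsg1* (−0.67) were. *Rsl24d1*, which holds the place of RPL24, had 22.4 and 32.5 CPM in control cells and 18.0 and 19.9 CPM in TRCs (log2 fold change −0.53, SE 0.28, FDR = 0.232), and its control libraries were far apart. A gene model on the same strand, *Gm20509*, overlaps it over 226 bases. *Nsa2* had 172 and 169 CPM against 158 and 169 CPM (log2 fold change −0.056, SE 0.19, FDR = 0.906), with overlapping groups and a 95% interval from −0.42 to 0.31. The exons of *Nsa2* overlap those of *Fam169a* and *Gfm2* on the other strand over 1591 bases, and the strand setting of the counting is not given in the sources used here, so reads of these genes may not be told apart.

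Nucleophosmin (*Npm1*) and nucleolin (*Ncl*) are abundant nucleolar proteins with roles in assembly and chaperoning, and both were downregulated. *Npm1* (ENSMUSG00000057113, chromosome 11 from 33152287 to 33163206) had 1429 and 1822 CPM in control cells and 815 and 1063 CPM in TRCs (log2 fold change −0.79, SE 0.23, FDR = 0.0154). *Ncl* (ENSMUSG00000026234, chromosome 1 from 86344719 to 86359400) had 1147 and 1710 CPM in control cells and 643 and 742 CPM in TRCs (log2 fold change −1.04, SE 0.25, FDR = 0.0012). The groups did not overlap for either gene, and 30.4% of all genes were likewise lower in both TRC libraries. The exons of *Ncl* hold small RNA genes on the same strand over 189 bases. Together they made up 37.2% to 43.3% of the summed level of the family in each library, and without them the mean summed level in TRCs was 0.586 of that in control cells. Without control replicate 3 the log2 fold changes were −0.61 and −0.73, without TRC replicate 1 they were −0.63 and −0.96, and neither gene was called in these fits. In the quasi-likelihood test the FDR of *Npm1* was 0.0856.

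A further 42 genes of 60S assembly that are not among the members were listed by name, and all were tested. Of these, 19 were downregulated and 0 upregulated by the exact test. Over all genes tested, 7.05% were downregulated by this test and 4.24% by the quasi-likelihood test. Among the 42 genes, 1 was higher at an unadjusted p under 0.05 in the exact test, 1 was called higher by DESeq2 and 0 by the quasi-likelihood test. Their median log2 fold change was −0.63. The lowest FDR values were those of *Mybbp1a*, *Ddx21* and *Pa2g4*. *Mybbp1a*, a nucleolar MYB-binding protein, had 317 and 384 CPM in control cells and 115 and 133 CPM in TRCs, a 2.83-fold decrease (FDR = 3.22e-08). *Ddx21*, a helicase of rRNA transcription and processing, had 252 and 303 CPM against 107 and 103 CPM (log2 fold change −1.40, FDR = 1.78e-07). *Pa2g4*, the relative of the yeast export factor Arx1, had 341 and 429 CPM against 167 and 164 CPM (log2 fold change −1.22, FDR = 1.35e-05). These genes were picked for their FDR in the same libraries, so their lower levels are no separate result. Of the 42 genes, 36 lay lower in both TRC libraries than in both control libraries, against 30.4% of all genes. The reverse held for 1, against 30.2% of all genes. Without control replicate 3, TRC replicate 1 or TRC replicate 3 the list had 8, 7 and 7 downregulated genes, with 1 upregulated gene without TRC replicate 1, and with the quasi-likelihood test 12.

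The genes of the proteins that these factors assemble were not called. Of 47 genes of 60S ribosomal proteins, 0 were downregulated and 0 upregulated, against 7.05% and 8.81% of all genes. The exact test gave no unadjusted p under 0.05 for any of them. Both TRC libraries lay below both control libraries for 5 of them and above for 3, against 30.4% and 30.2% of all genes. The quasi-likelihood test and DESeq2 also called 0 of them in either direction. Their log2 fold changes lay between −0.30 and 0.32, with a median of −0.00088, and their summed level was 24853 and 27905 CPM in control cells and 23528 and 29072 CPM in TRCs. The groups overlapped in this sum, unlike in that of the assembly factors. Genes of ribosomal proteins have many processed pseudogenes, and reads that also match these were not counted. Alignments to more than a single place were a larger share of each TRC library than of each control library, so the level of these genes is less certain than that of the assembly factors.

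**Figure D4:**
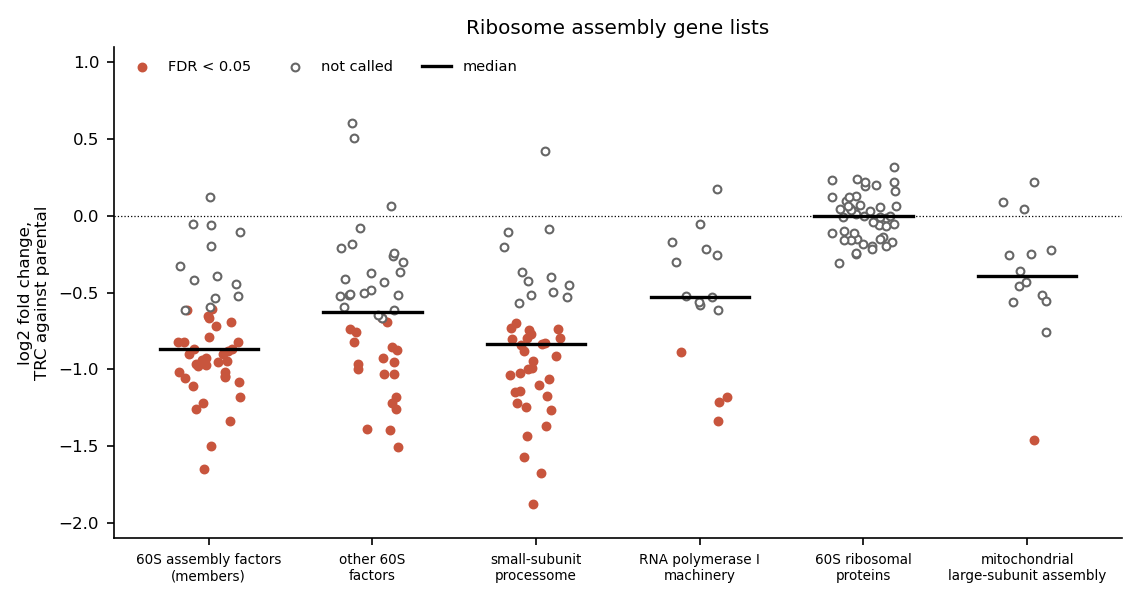
Log2 fold change of single genes, TRCs against parental control cells, in 6 lists of ribosome assembly genes. Each point is a gene, filled red when the FDR was under 0.05, and black lines are medians. The medians are −0.87 for the 60S assembly factors, −0.63 for other 60S factors, −0.83 for the small-subunit processome, −0.53 for RNA polymerase I, −0.00088 for 60S ribosomal proteins and −0.39 for mitochondrial large-subunit assembly.

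The neighbouring lists are given for scale and were not tested against the members. In the small-subunit processome, 31 of 43 genes tested were downregulated and 0 upregulated, with a median log2 fold change of −0.83. In the RNA polymerase I machinery, 4 of 15 were downregulated, with a median of −0.53. In mitochondrial large-subunit assembly, 1 of 14 was downregulated, *Mrm3*, with a median of −0.39. Over all genes tested 7.05% were downregulated, a share close to that of the mitochondrial list. Leaving out control replicate 3, TRC replicate 1 or TRC replicate 3 gave 17, 15 and 19 downregulated genes in the processome (and 1 upregulated gene without TRC replicate 3), 2, 2 and 3 in the RNA polymerase I machinery and 1, 0 and 0 in mitochondrial assembly. In these 3 lists 0 genes had a higher level in TRCs at an unadjusted p under 0.05, or by DESeq2 or the quasi-likelihood test. Of 20 S-phase and mitosis genes 8 were downregulated, namely *Mcm2* to *Mcm7*, *Cdc6* and *Cdc45*, while *Mki67* had a log2 fold change of −0.19 (FDR = 0.737). Across this proliferation list the median was −0.60, with 18 values below 0 and 2 above. The exact test put 12 of these genes lower at an unadjusted p under 0.05. For 16 of them both TRC libraries lay below both control libraries, and for 1 above, against 30.4% and 30.2% of all genes. In the fits without control replicate 3, TRC replicate 1 or TRC replicate 3 the number called was 1, 2 and 2, and by the quasi-likelihood test 3. Their summed level was 4887 and 6652 CPM in control cells and 3911 and 3765 CPM in TRCs, and their part in the decrease of the assembly factors was not tested.

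**Figure D5:**
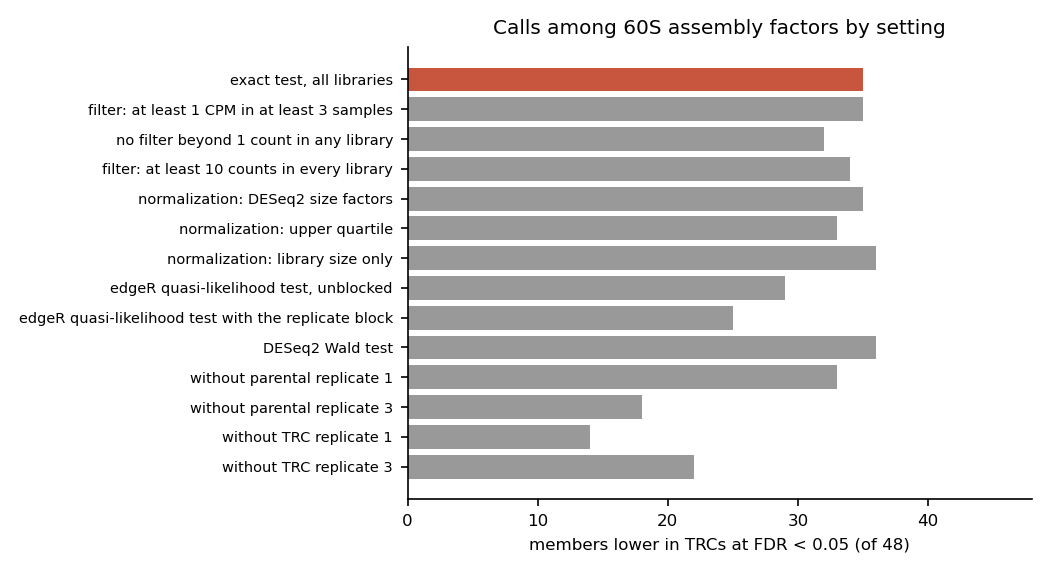
Number of the 48 factors called lower in TRCs at an FDR under 0.05 in the exact test with all libraries (red) and in each of the 13 alternatives (grey). The number runs from 14 without TRC replicate 1 to 36 with library size only or with DESeq2.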

How the data were processed

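RNA of 4 libraries, made with a stranded kit, was sequenced. Per the study's methods and processing notes, the authors used CASAVA 1.8.2, Trimmomatic 0.35 for trimming, TopHat2 2.1.0 with Bowtie2 2.2.6 and SAMtools 1.3 for alignment to GRCm38, and htseq-count for assigning reads to Ensembl genes. The deposited values are raw counts per gene, 1 library per file. The counting mode and strand setting are not given in the sources used here. Totals that are not genes (20.2% to 29.0% of the alignments) were removed.

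Following the study's methods, genes under 1 CPM in at least 3 samples were removed, TMM factors (0.957 to 1.04) were computed, and the exact test with common and tagwise dispersions was run in edgeR 4.0.16 (R 4.3.3; prior count 0.125) with Benjamini-Hochberg adjustment over 11483 genes. Standard errors and 95% intervals came from DESeq2 1.42.0. Positions and transcript lengths, taken from the shortest principal transcript, came from GENCODE M21 on GRCm38, and promoter windows from RefSeq on GRCm38.p6. Groups came from the sample labels, which do not say whether libraries came from separate cultures, so p-values measure only the spread between these samples.

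The members and lists were chosen with earlier results of these data known. Libraries are named per gene for the members with the lowest FDR, the highest FDR and the highest CPM in each role group. They are also named for all members not called, the PeBoW, 5S RNP and methyltransferase genes, *Npm1* and *Ncl*. The same holds for the 3 other 60S factors with the lowest FDR. Called genes of the MYC network are given by log2 fold change and FDR. *Rrp1b*, *Nol9*, *Nmd3*, *Lsg1* and *Myc* were added after their values were seen. Of 44 small-subunit genes, *Riok2* had no matching identifier. Alternatives were 3 filters, 3 normalizations, the quasi-likelihood test in unblocked and replicate-blocked form, DESeq2's Wald test and each library left out. Each test was first tested on simulated counts.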

Additional observations from a re-analysis of the deposited data

How the results depend on the processing

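Leaving out single libraries moved the number of members called lower between 14 and 33, their median log2 fold change between −0.94 and −0.70, and the number of other 60S factors called lower between 7 and 16. In these fits the lone library of a group is assumed to vary like the other group. In edgeR's quasi-likelihood test 29 members and 12 other 60S factors were called lower, and with the replicate block 25 and 7. Over the filters, normalizations and DESeq2 the number of members ranged from 32 to 36. No setting called a member higher or a 60S ribosomal protein lower. Of the members, *Ddx24* and *Ddx54* changed sign with a library left out, with log2 fold changes from −0.22 to 0.024 for *Ddx24*, above 0 without control replicate 3, and from −0.26 to 0.18 for *Ddx54*, above 0 without control replicate 3 or TRC replicate 1 (0.028). The cause was not tested. Over all genes, 810 were called lower and 1012 higher, against 487 and 567 in the quasi-likelihood test, 308 and 477 with the block, and 269 to 854 and 500 to 1078 with a library left out. *Pes1* was called with library size only and *Nip7* with DESeq2. The labels do not say that equal replicate numbers mark a shared batch, and deviations of same-numbered libraries correlated across genes with r = 0.027, so the numbers were not taken to pair the samples, although 36 members in control cells and 35 in TRCs were higher in replicate 3 than in replicate 1. Of the 35 calls, 25 were kept with the replicate block. The standard errors of the members' log2 fold changes were 0.19 to 0.28 with 2 libraries per group, and a member that was not called is not shown to be unchanged.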
